A study of Mus musculus with 4 samples.

Results

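The mouse Serpina1 copies are near-identical genes for alpha-1 antitrypsin, a secreted inhibitor of serine proteases. Serpina1a, Serpina1b, Serpina1c, Serpina1d and Serpina1e were selected on their symbols, with their fasting changes in these tables already known, so those changes are given as a description. All 5 copies were found, of 24182 genes listed in both of the authors' deposited tables. RNA came from small-intestinal crypts of male C57BL/6J mice aged 9 weeks, shaken off in HBSS with EDTA and made into single cells with trypsin. The 4 groups were fed mice and mice fasted for 24 hours, each without tetracycline and with tetracycline, an antibiotic given for 21 days. The design names AKK as what tetracycline was given to deplete, and asks what that does to the difference between fed and fasted mice. The labels list 1 sample per group, but the deposited means resolved into whole counts from 2 fasted and 2 fed libraries in each table. These 8 libraries could not be tied to the labelled samples, and nothing says that they came from separate animals, so any p-value measures only the spread between them. Each feeding state of a table thus has a pair of libraries, numbered by falling size factor.

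Alpha-1 antitrypsin is a serpin. It offers proteases a flexible loop as bait, is cleaved there, and then traps the protease in a covalent complex. Hepatocytes secrete most of the protein in blood, where it is known for holding back neutrophil elastase, and it is also made by the gut epithelium, including enterocytes and Paneth cells. People have a single working gene, whereas laboratory mice carry several copies in a row.

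In the RefSeq annotation of GRCm38.p6, the copies lie on the minus strand of chromosome 12 within 228.742 kb. Serpina1b spans positions 103728156 to 103738189, and Serpina1d 103763587 to 103773633. Serpina1a spans 103853295 to 103863619, Serpina1c 103894926 to 103904950, and Serpina1e 103946931 to 103956897. The deposited tables hold no coordinates, so these positions come from the reference alone.

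The stretch that sets the copies apart in function is the reactive loop. The coding sequence of each copy, taken from GENCODE M21, had 1242 bases for 413 residues and a stop. The 60 bases of the loop are shown 5′ to 3′ because they hold the residue that a protease cuts after, named P1, whose codon is in capitals.
Serpina1a: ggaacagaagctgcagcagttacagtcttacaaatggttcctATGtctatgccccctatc
Serpina1b: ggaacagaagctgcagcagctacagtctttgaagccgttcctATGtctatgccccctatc
Serpina1c: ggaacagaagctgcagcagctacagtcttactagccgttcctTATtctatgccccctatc
Serpina1d: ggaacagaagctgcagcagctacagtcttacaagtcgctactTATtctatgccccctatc
Serpina1e: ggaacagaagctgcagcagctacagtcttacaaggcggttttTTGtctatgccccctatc
Serpina1a and Serpina1b encode methionine at P1, Serpina1c and Serpina1d tyrosine, and Serpina1e leucine. In human alpha-1 antitrypsin P1 is methionine, and P1 is a main determinant of which proteases a serpin inhibits. Of the 60 loop positions, 13 (21.7%) varied among the copies, against 86 of 1242 (6.92%) over the coding sequence. A window of this length held a median of 4 variable positions and at most 18, so the loop was variable but did not hold the most.

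Over the whole coding sequence, loop included, the copies were close. Over 10 pairs, coding identity ran from 96.3% to 98.5%, and protein identity from 92.7% to 97.3%. The closest pair was Serpina1a and Serpina1c, with 19 different bases. Short-read quantifiers assign a read by the stretches it matches, and a read that fits several copies has to be divided among them. Of all 31-base stretches in its annotated transcripts, Serpina1c had 14.2% to itself, Serpina1a 34.8%, Serpina1d 35.3%, Serpina1e 45.8% and Serpina1b 55.3%. For stretches of 100 bases the shares were 30.7% for Serpina1c, 57.2% for Serpina1a, 70.7% for Serpina1d, 85.2% for Serpina1b and 85.6% for Serpina1e. The values of single copies, those of Serpina1c and Serpina1a above all, are therefore uncertain, and each is set beside the sum of the family, which does not depend on how reads were divided within it.

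**Figure D1:**
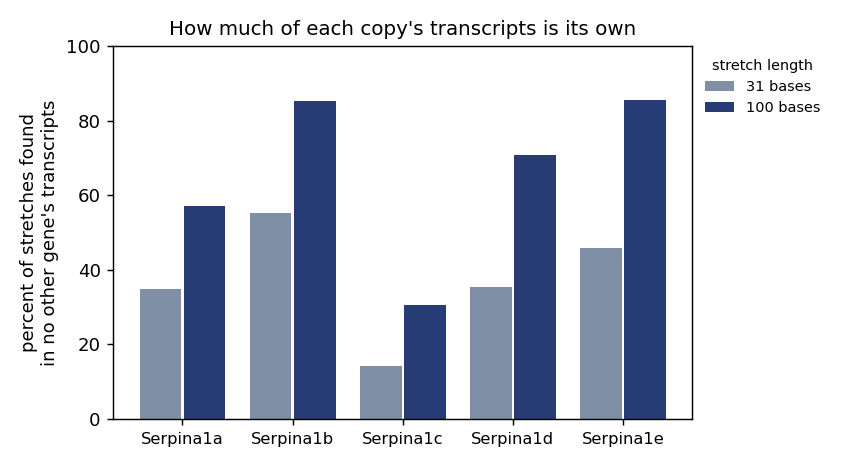
Percent of the 31-base and 100-base stretches in each copy's annotated transcripts that occur in no other gene's transcripts (y axis), by copy (x axis). Serpina1c has the lowest share at both lengths, 14.2% and 30.7%.

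The promoters, from RefSeq on GRCm38.p6, were compared over 60 bases before the annotated start. The windows were lined up on a short stretch that all copies share, which began 16 to 78 bases before the start, so they favour likeness. Serpina1a, Serpina1b and Serpina1c were identical there, Serpina1e differed from them at 1 base and Serpina1d at 4. Serpina1d and Serpina1e differed at 5 bases, the most of the 10 pairs. Motifs were searched on either strand of the 300 bases around each annotated start (250 before, 50 after), over 32851 promoters. TGACTCA, the AP-1 motif, occurred in 4 of 5 copies, all but Serpina1e, and in 5.20% of promoters. The forkhead motif TGTTTAC occurred in 0 copies and in 3.65% of promoters. The STAT motif TTCNNNGAA occurred in 0 copies and in 8.30% of promoters, and the TATA box TATAAA in 0 copies and in 13.6%. A match is a description of the letters and not a bound site.

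The family was a small part of the crypt RNA. Its summed mean was 979 normalized counts without and 869 with tetracycline, 0.00149% and 0.00133% of all normalized counts. An average library held 65863261 normalized counts without and 65327199 with tetracycline, and the largest size factor was 1.17 and 1.75 times the smallest. All 15 enterocyte, 11 Paneth cell and 10 stem and dividing cell markers looked for were listed in both tables. Markers of lymphocytes were listed as well, 7 of 7, as were 10 of 10 of pancreatic acinar cells and 16 of 20 of hepatocytes. A row could be listed with as few as 2 counts, so listing is no test of the tissue label.

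The order of the copies was nearly fixed. Per kilobase of transcript, the mean level of Serpina1b was 477 normalized counts without and 447 with tetracycline, ahead of Serpina1c at 119 and 97.6. Serpina1e followed at 82.6 and 67.8, then Serpina1a at 23.4 and 12.2 and Serpina1d at 9.82 and 6.66. The order Serpina1b, Serpina1c, Serpina1e, Serpina1a held in 8 of 8 libraries, and Serpina1a lay above Serpina1d in 7 of 8. The last pair lies within the spread of the libraries. Serpina1b made up 55.2% to 85.6% of the family's counts in a library, Serpina1c 8.84% to 23.0%, Serpina1e 3.37% to 16.0%, Serpina1a 0.541% to 4.35% and Serpina1d 0.562% to 1.86%. The methionine copies thus supplied most of the counts, nearly all of them through Serpina1b.

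Serpina1b, the main copy, was the one whose fasted and fed libraries separated in opposite directions in the 2 tables. Without tetracycline its normalized counts were 587 and 538 in the fasted pair and 689 and 846 in the fed pair. Both fasted libraries lay below both fed ones. The log2 change, fasted over fed, was -0.45 (SE 0.29) in the authors' deposited table, with a DESeq2 adjusted p of 0.643. With tetracycline the normalized counts were 877 and 942 in the fasted pair and 370 and 302 in the fed pair, so both fasted libraries lay above both fed ones. The log2 change there was 1.44 (SE 0.39), and the authors' DESeq2 adjusted p was 0.0447. The call lay close to the threshold of 0.05: with the Benjamini-Hochberg adjustment taken over all 26085 rows it was lost, at an adjusted p of 0.0648. In a bulk sample, more RNA per cell and more cells of a type that expresses the gene cannot be told apart.

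Separation of 2 libraries from 2 is common and is no result by itself. Among 3298 genes with a mean of 50 to 600 that resolved into whole counts, 49.8% did not overlap between fasted and fed libraries without tetracycline and 33.6% with it. Non-overlap in both tables with opposite directions, the pattern of Serpina1b, was seen in 1.94% of these genes. Serpina1b itself, with means of 665 without and 623 with tetracycline, lay above that range, so these shares were not taken at its level. The copies were also chosen with this pattern known, so nothing is read from the 1.94%.

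**Figure D2:**
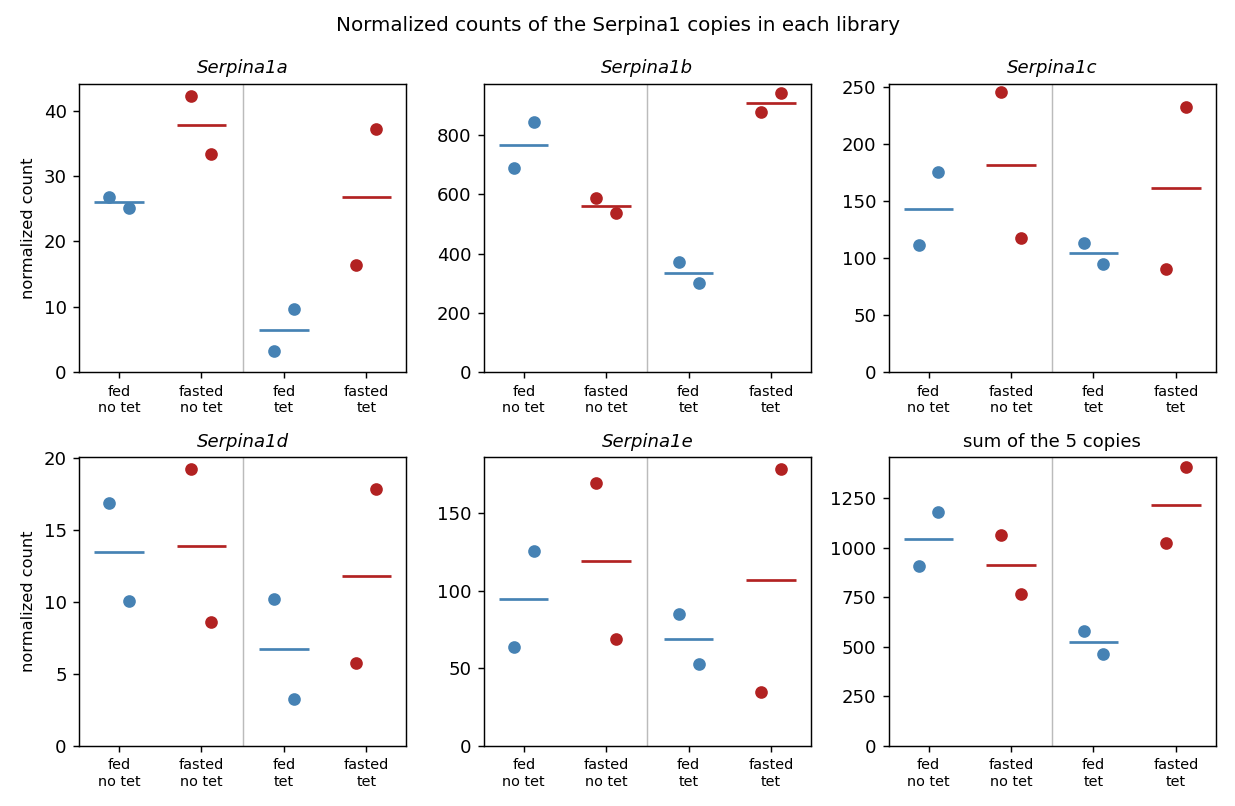
Normalized counts (y axis, from 0, with its own scale in each panel) of each copy and of the 5 copies summed, in fed (blue) and fasted (red) libraries without (no tet) and with (tet) tetracycline; points are single libraries and bars their means. Serpina1b is at 538 to 587 in fasted and 689 to 846 in fed libraries without tetracycline, and at 877 to 942 and 302 to 370 with it.

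Serpina1a, the other methionine copy, was low. Without tetracycline it had 46 and 31 counts in the fasted pair and 27 and 25 in the fed pair, or 42.2 and 33.3 against 26.8 and 25.1 normalized counts. With tetracycline it had 20 and 27 counts in the fasted pair and 4 and 9 in the fed pair, or 16.5 and 37.1 against 3.15 and 9.71 normalized counts. Its fasted libraries lay above its fed ones in both tables. The share of all genes with that pattern is not given here, so nothing is read from the separation of Serpina1a. The log2 changes were 0.54 (SE 0.67) and 2.08 (SE 1.12) in the authors' deposited tables, and neither was called. With tetracycline the change was 1.36 without fasted library 2, 1.47 without fed library 1 and 3.09 without fed library 2, so its size rested on single libraries with few counts.

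The tyrosine and leucine copies overlapped between the feeding states and differed widely within them. Serpina1c had normalized counts of 245 and 117 in the fasted pair and 111 and 175 in the fed pair without tetracycline. With tetracycline these were 90.5 and 233 in the fasted pair and 113 and 94.9 in the fed pair. Its fasted pair spanned both fed values with tetracycline and lay apart from them in neither table. Serpina1e had 170 and 68.8 in the fasted pair and 63.5 and 126 in the fed pair without tetracycline, and 34.6 and 179 in the fasted pair and 85.0 and 52.9 in the fed pair with it. In both copies fasted library 1 was the highest of its table without tetracycline and the lowest with it. Serpina1d, the lowest copy, had 21 and 8 counts in the fasted pair and 17 and 10 in the fed pair without tetracycline, and 7 and 13 against 13 and 3 with it. The log2 changes without tetracycline were 0.34 (SE 0.47) for Serpina1c, 0.34 (SE 0.56) for Serpina1e and 0.06 (SE 1.02) for Serpina1d. With tetracycline they were 0.63 (SE 0.63), 0.62 (SE 0.84) and 0.77 (SE 1.38). Leaving out 1 library turned the sign of each in both tables. Without tetracycline and without fasted library 1 the changes were -0.29 for Serpina1c, -0.46 for Serpina1e and -0.65 for Serpina1d. Leaving out fed library 1 gave -0.07 for Serpina1e, and leaving out fed library 2 gave -0.28 for Serpina1d. With tetracycline, leaving out fasted library 2 gave -0.20, -0.996 and -0.23.

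In total, the authors' adjusted p called 0 of 5 copies without tetracycline, with 0 of 5 at an unadjusted p under 0.05 in the authors' DESeq2 table. Of all genes tested, 2.27% were called there, 1.06% higher and 1.22% lower in fasted mice. With tetracycline 1 of 5 copies was called, higher in fasted mice, against 0.600% of all genes, 0.333% higher and 0.267% lower. Since the copies were chosen with these changes known, the share among them is not a result.

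The make-up of the family was given by the share of each copy in its counts. The share of Serpina1b was 55.2% and 70.2% in the fasted pair and 75.9% and 71.6% in the fed pair without tetracycline. With tetracycline it was 85.6% and 66.9% in the fasted pair and 63.6% and 65.3% in the fed pair. Both fasted shares lay below both fed ones without tetracycline and above them with it, as the counts of Serpina1b did. The lowest and the highest share were both those of a fasted library. The count of Serpina1b over that of Serpina1c ran from 2.40 to 9.69 over the 8 libraries, a 4.04-fold range. The ratio of Serpina1e to Serpina1c, which have the overlapping groups, ran from 0.382 to 0.769, a 2.01-fold range. Counting error alone is part of these ranges for the low copies, and how the authors' quantifier divided shared reads was not tested.

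**Figure D3:**
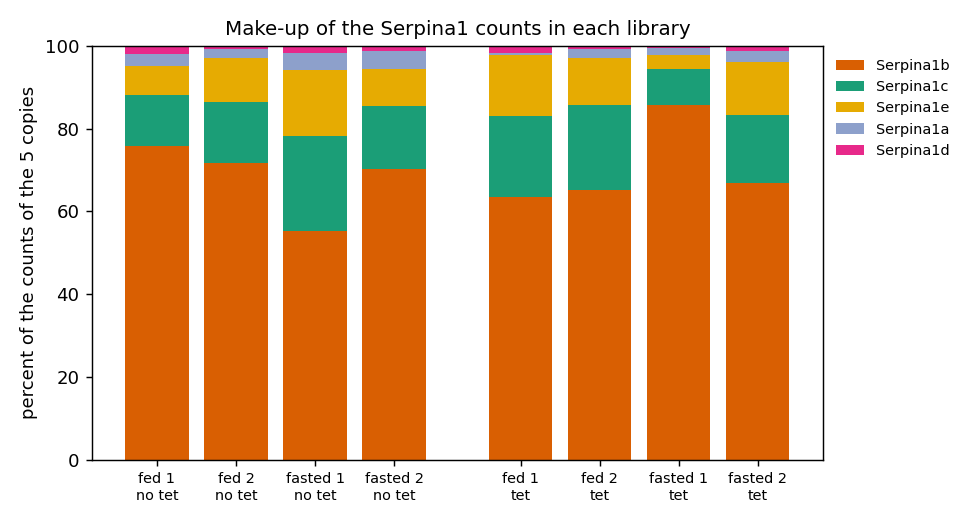
Percent of the summed counts of the 5 copies (y axis) held by each copy in each library (x axis: fed and fasted libraries 1 and 2, without tetracycline, no tet, and with it, tet). Serpina1b holds 55.2% in fasted library 1 without tetracycline and 85.6% in fasted library 1 with it.

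Summed over the family, normalized counts without tetracycline were 1063 and 766 in the fasted pair and 907 and 1181 in the fed pair. The groups overlapped, and the fasted mean was 0.876 times the fed mean, a log2 change of -0.19. With tetracycline the sums were 1024 and 1409 in the fasted pair and 582 and 463 in the fed pair. Here both fasted libraries lay above both fed ones, and the fasted mean was 2.33 times the fed mean, a log2 change of 1.22. Without Serpina1b, the 4 other copies summed to a log2 change of 0.35 without and 0.72 with tetracycline, so the sign of the first value rested on Serpina1b. Leaving out fasted library 2 or fed library 2 without tetracycline also turned it, to 0.03 and 0.01. No sum was tested.

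**Figure D4:**
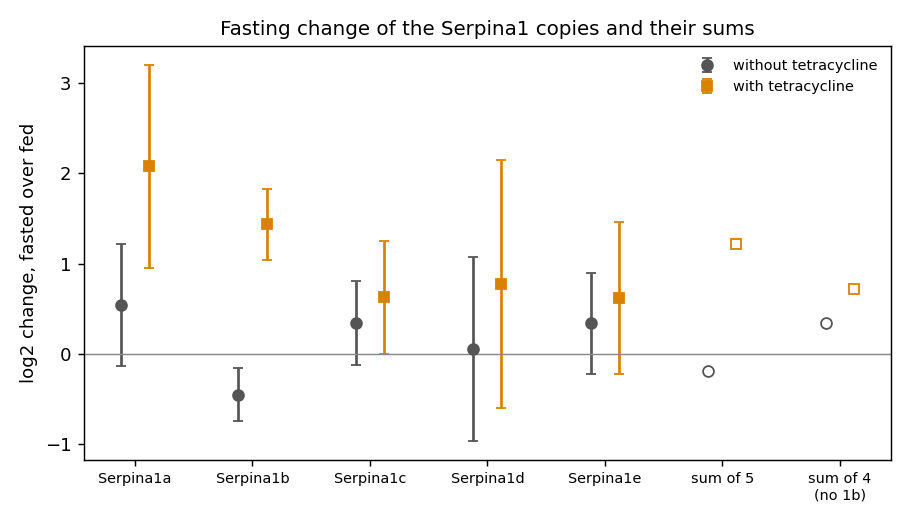
Log2 change, fasted over fed (y axis), of each copy and of the sums over 5 copies and over the 4 copies other than Serpina1b (x axis), without (grey) and with (orange) tetracycline. Filled points are the authors' changes with their standard errors as bars, and open points are sums of normalized counts with no error; Serpina1b is at -0.45 without and 1.44 with tetracycline.

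The fasting change with tetracycline minus that without was 1.88 (SE 0.49) for Serpina1b and 1.53 (SE 1.31) for Serpina1a. It was 0.72 (SE 1.71) for Serpina1d, 0.28 (SE 0.78) for Serpina1c and 0.28 (SE 1.004) for Serpina1e, and 1.41 for the family sum. A Wald test of this difference, adjusted over 17571 genes, called 0 of 5 copies and 4 genes in all (0.0228%), and 1 of 5 copies was under 0.05 before adjustment, Serpina1b. No share of all genes under 0.05 before adjustment is given here, for this test or for the authors' DESeq2 tables. Unadjusted counts of copies and of lists are therefore a description only. For the sum of the 4 other copies the difference was 0.37.

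Both feeding states contributed to the difference of Serpina1b. The tables were scaled separately, so levels across them were centred on the median of 21925 genes, which was 0.06 on the log2 scale in each state. In fed mice the log2 level with over without tetracycline was -1.25 for Serpina1b, -1.92 for Serpina1a, -0.96 for Serpina1d, -0.51 for Serpina1c and -0.51 for Serpina1e. In fasted mice it was 0.63 for Serpina1b, -0.54 for Serpina1a, -0.28 for Serpina1d, -0.23 for Serpina1c and -0.22 for Serpina1e. The family sum stood at -1.06 in fed and 0.35 in fasted mice. Each value compares means of 2 libraries. As deposited, without the centring, the fed libraries of the 2 tables did not overlap for Serpina1b and Serpina1a and overlapped for Serpina1c, Serpina1d and Serpina1e. The fasted libraries did not overlap for Serpina1b and overlapped for the 4 other copies, so for the overlapping copies the sign is not shared by every pair of libraries. The share of all genes whose libraries do not overlap between the tables is not given here, so nothing is read from these overlaps. The levels across the tables carry no test.

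The neighbours in the gene cluster added little. GENCODE M21 places 19 other genes from Serpina10 to Serpina12, of which 9 were listed without and 6 with tetracycline. Of 9 pseudogenes, 1 was listed, Gm8893, which shares 24.2% of the 31-base stretches of Serpina1b and 53.0% of those of Serpina1c. It had 3 and 1 counts in the fasted pair and 3 and 10 in the fed pair without tetracycline, and 0 and 2 against 0 and 0 with it. B430119L08Rik, an antisense gene that overlaps Serpina1c, had 4 counts in fed library 2 and 0 in the other 3 libraries without tetracycline. The library kit does not keep the strand, so reads from the stretches they have in common, 26.3% of the 31-base stretches of Serpina1c, cannot be told apart. Serpina9, a serpin of germinal centre B cells, was the most abundant neighbour by mean. It had 39 and 41 counts in the fasted pair and 44 and 31 in the fed pair without tetracycline, and 134 and 29 against 44 and 34 with it.

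Other protease inhibitors were compared through lists chosen with earlier results of these data known. Of the other clade A serpins, 5 without and 3 with tetracycline were tested, and 0 were called in either table, with 0 at an unadjusted p under 0.05 in the authors' DESeq2 tables. Serpina3g had the largest mean, 587 and 1065 normalized counts, with log2 changes of 0.01 (SE 0.38) and -0.89 (SE 0.82). Among serpins of other clades, 1 of 14 was called without tetracycline and 0 of 14 with it, against 2.27% and 0.600% of all genes. With tetracycline 2 were under 0.05 unadjusted in the authors' DESeq2 table. The list's median log2 change was -0.30 and -0.28, against 0.01 and -0.02 over all genes tested. The called gene was Serpine2, protease nexin 1, an inhibitor of thrombin and plasminogen activators. Its normalized counts were 69.7 and 146 in the fasted pair and 33.7 and 25.1 in the fed pair, a log2 change of 1.87 (SE 0.57). With tetracycline it was at 102 and 63.3 in the fasted pair and 28.4 and 24.8 in the fed pair, a change of 1.64 (SE 0.65) that was not called. Serpinb1a, an intracellular inhibitor of neutrophil proteases, had a mean of 39132 without and 32572 with tetracycline, and log2 changes of -0.16 (SE 0.34) and 0.25 (SE 0.52). Serpinf2, alpha-2 antiplasmin, had changes of 0.37 (SE 0.32) and 0.56 (SE 0.42). Of 12 inhibitors from other families, such as Spint2 and Spink4, 0 were called in either table, with 3 and 1 under 0.05 unadjusted, and the median changes were -0.04 and 0.44.

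Serine proteases of neutrophils, epithelium and pancreas were counted as 3 lists, beside 2.27% of all genes called without and 0.600% with tetracycline. Of 4 neutrophil serine proteases, 2 were listed, and their counts were too low for an adjusted p. Summed normalized counts of this pair were 0 to 2.01 without and 1.38 to 5.76 with tetracycline. Of 12 epithelial membrane and secreted serine proteases, 0 were called without tetracycline, where 1 was under 0.05 unadjusted in the authors' DESeq2 table, and 1 with it, and the medians were 0.002 and 0.48. The most abundant was St14, matriptase, with a mean of 18372 normalized counts without and 16168 with tetracycline. The called gene was Prss23, a secreted serine protease, with a log2 change of 1.94 (SE 0.37) with and 0.49 (SE 0.28) without tetracycline. Of 8 pancreatic proteases tested, 0 were called in either table, with 2 and 0 under 0.05 unadjusted in the authors' DESeq2 tables. The median log2 change was -1.71 without tetracycline, where 8 of 8 had a value below 0, and -0.18 with it, where 5 of 8 did. Fed library 2 without tetracycline stood apart in pancreatic RNA. Summed over 9 acinar markers, which include some of these proteases, it held 1529 normalized counts, against 93.3 in fed library 1 and 339 and 287 in the fasted pair. With tetracycline the sums were 321 and 406 in the fasted pair and 146 and 531 in the fed pair. Fed library 2 had the highest acinar sum of each table, and it was the highest for Serpina1b without tetracycline and the lowest with it. The log2 change of Serpina1b without tetracycline was -0.29 when that library was left out. The part of pancreatic RNA in the values of the copies was not tested.

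Transcription factors of the liver and gut, some of which are known to drive Serpina1 in the liver, were looked at as a list. Of 21, 0 were called in either table, against 2.27% and 0.600% of all genes, with 2 and 1 under 0.05 unadjusted in the authors' DESeq2 tables. At those shares a list of this length would hold few calls or none. The medians were 0.13 without and 0.22 with tetracycline. Hnf4a, a nuclear receptor of hepatocytes and enterocytes, had changes of 0.04 (SE 0.29) and -0.13 (SE 0.37). Cebpa had 0.16 (SE 0.27) and 0.55 (SE 0.36). The family is an acute phase gene in many species, and IL-6 and oncostatin M are its known inducers. Of 11 tested genes of that pathway 1 was called without tetracycline, Socs3, a feedback inhibitor that the pathway induces. Its log2 change was 1.995 (SE 0.38, adjusted p 3.96e-05 in the authors' DESeq2 table). With tetracycline Socs3 was at 501 and 790 normalized counts in the fasted pair and 1057 and 600 in the fed pair, a change of -0.36 (SE 0.50), and 0 of 11 genes were called, with 1 under 0.05 unadjusted. Stat3, which relays the signal, had 0.54 (SE 0.36) and -0.48 (SE 0.45). The median of the list was 0.30 without and -0.27 with tetracycline. The part of this pathway in the values of the copies was not tested.

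Handling of the protein was covered by 2 lists, beside 2.27% of all genes called without and 0.600% with tetracycline. Of 20 genes for folding, export and disposal of secreted glycoproteins, 0 were called in either table, and 0 were under 0.05 unadjusted in the authors' DESeq2 tables. With tetracycline 18 of 20 had a value above 0, with a median of 0.32, and without it 11 of 20, with a median of 0.07. Lman1, the cargo receptor that carries alpha-1 antitrypsin out of the endoplasmic reticulum, had changes of 0.27 (SE 0.27) and 0.78 (SE 0.49). Of 5 receptors and helpers for uptake of serpin and protease complexes, 1 was called without and 0 with tetracycline. Under 0.05 unadjusted in the authors' DESeq2 tables were 2 without and 1 with tetracycline. The called gene was Vldlr, with normalized counts of 312 and 340 in the fasted pair and 164 and 134 in the fed pair and a log2 change of 1.13 (SE 0.34). Its change with tetracycline was 1.21 (SE 0.50). Lrp1, the main clearance receptor of these complexes, had 1.05 (SE 0.35) and 0.16 (SE 0.46), neither called. None of the genes in these lists was among the 4 that the Wald test of the difference called.

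**Figure D5:**
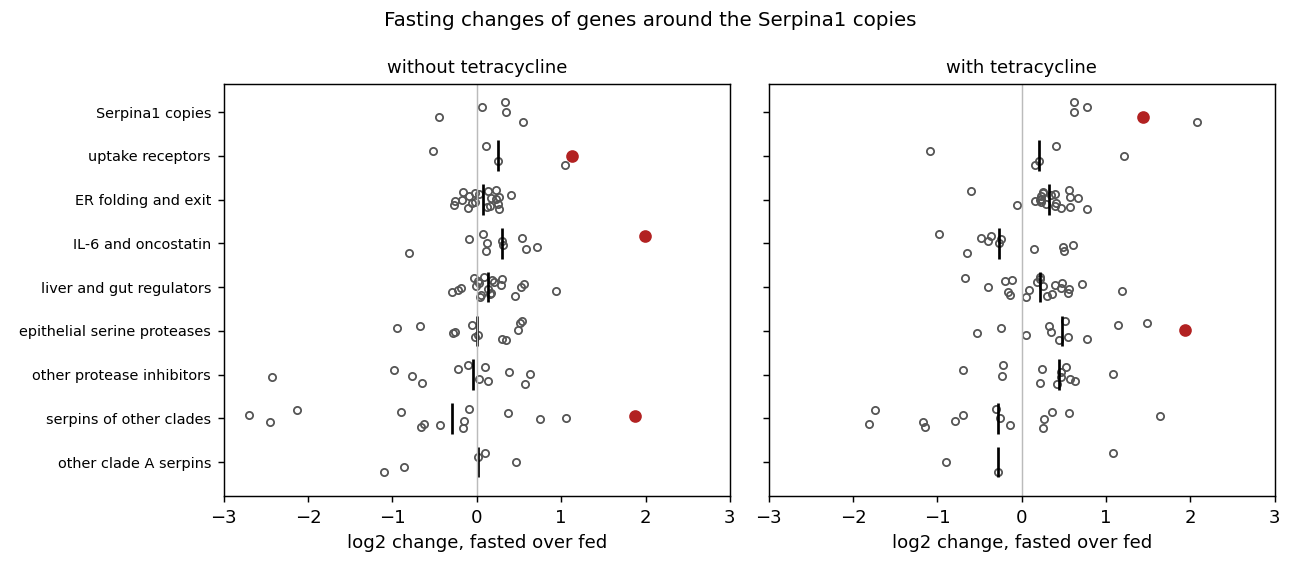
Log2 change, fasted over fed (x axis), of the tested genes of 8 gene lists and of the copies (y axis), without (left) and with (right) tetracycline. Filled red points are genes under an adjusted p of 0.05 in the authors' tables, open points the others, and bars the median of each list; Socs3 is called at 1.995 on the left, and Serpina1b at 1.44 and Prss23 at 1.94 on the right.

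Hepatocyte markers were low or shared with the gut. Of 20, 16 were listed in each table, and Fgg, Mup3 and Mup20 were among those that were not. Alb, albumin, a main product of hepatocytes, had a mean of 51.9 normalized counts without and 54.8 with tetracycline. Fga and Fgb, fibrinogen chains, had means of 0.767 and 1.42 without and 0.617 each with tetracycline. The summed level of the 16 listed markers was 1493 and 1887 in the fasted pair and 1345 and 1340 in the fed pair without tetracycline, and 2268 and 2018 against 1275 and 1596 with it. Most of that sum was Ttr, Ambp and Cyp2e1. The sum was thus higher in both fasted libraries in each table, while Serpina1b was lower in both without tetracycline and higher in both with it. Alb alone had log2 changes of -0.29 (SE 0.65) without and 0.53 (SE 0.62) with tetracycline, neither called, with the signs of Serpina1b. Of the tested markers 6 had a value above 0 and 3 below it without tetracycline, and 6 and 2 with it. Cyp2e1 was called higher without tetracycline, at 1.41 (SE 0.43). It was the only one of 9 tested markers called, against 2.27% of all genes. With tetracycline 0 of 8 were called, against 0.600% of all genes, with 1 under 0.05 unadjusted in the authors' DESeq2 table. The part of these markers in the change of the copies was not tested.

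Markers of the crypt's own cells were counted as 5 lists, beside 1.06% of all genes called higher and 1.22% called lower without tetracycline, and 0.333% and 0.267% with it. Fewer genes were called in all with tetracycline, so fewer calls in a list there show no difference between the tables. Of 11 Paneth cell markers, 7 were called higher without tetracycline and 0 with it, where 3 were under 0.05 unadjusted, and the medians were 1.15 and 1.18. Of 15 enterocyte markers 2 were called higher without tetracycline, Fabp1 and Apob, and 0 with it, where 2 were under 0.05 unadjusted in the authors' DESeq2 table, with medians of 0.58 and 0.82. Serpina1b, below 0 without tetracycline, differed there in sign from the medians of both lists. Markers of goblet and enteroendocrine cells had medians with the signs of Serpina1b. Of 8 goblet cell markers 1 was called lower without tetracycline, Agr2, at -1.20 (SE 0.27), and 0 with it, where 0 were under 0.05 unadjusted in the authors' DESeq2 table, with medians of -0.27 and 0.29. Of 9 enteroendocrine markers 1 was called lower without tetracycline, the hormone gene Cck, at -1.02 (SE 0.31), and 0 with it, where 2 were under 0.05 unadjusted, with medians of -0.32 and 0.25. Of 10 stem and dividing cell markers 0 were called in either table, with 4 and 0 under 0.05 unadjusted in the authors' DESeq2 tables, and the medians were -0.41 and -0.37.

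The tested markers of immune cells had values below 0 in both tables, where 1.22% and 0.267% of all genes were called lower. Of 7 tested macrophage and neutrophil markers 1 was called lower without tetracycline, Lyz2, a lysozyme of macrophages, at -1.47 (SE 0.42). With tetracycline 0 were called, with 5 under 0.05 unadjusted in the authors' DESeq2 table. All 7 had a value below 0 in each table, with medians of -1.09 and -1.61. Of 7 lymphocyte markers 4 were called lower without tetracycline and 0 with it, where 3 were under 0.05 unadjusted, and the medians were -1.82 and -1.78. Summed over 4 B cell markers, the libraries held 393 and 958 in the fasted pair and 2056 and 3977 in the fed pair without tetracycline, and 1625 and 105 in the fasted pair and 4764 and 1171 in the fed pair with it. Fasted library 2 with tetracycline, the highest of its table in 5 of 5 copies, was the lowest in these B cell markers.

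The 2 ends of the small intestine differ in what they express. Over all genes, 1.06% were called higher and 1.22% lower without tetracycline, and 0.333% and 0.267% with it. Of 8 markers of the distal part 1 was called lower without tetracycline, Fabp6, the bile acid binding protein of the ileum, at -5.13 (SE 0.34), and 0 with it, where 2 were under 0.05 unadjusted in the authors' DESeq2 table. Fabp6 was at -2.21 (SE 0.75) with tetracycline, and the medians of the list were 0.06 and 0.60. Of 8 markers of the proximal part Fabp1 was called higher and Slc40a1, the iron exporter, lower without tetracycline, and Slc40a1 was called lower with it, with medians of -0.04 in each table. Fgf15, a hormone of the ileum, resolved into libraries in both tables, and Slc10a2, the bile acid transporter of the ileum, with tetracycline. Without tetracycline Fgf15 stood at 140 and 49.5 in the fasted pair and 155 and 99.5 in the fed pair. Its highest library was fed library 1, where Serpina1c and Serpina1e were lowest. With tetracycline Slc10a2 stood at 189 and 1417 in the fasted pair and 747 and 392 in the fed pair. Fgf15 stood at 37.0 and 187 in the fasted pair and 115 and 300 in the fed pair. Both were lowest in fasted library 1, as were Serpina1c and Serpina1e, but the highest library was fasted library 2 for Slc10a2 and fed library 2 for Fgf15. The part of cell type and region in the values of the copies was not tested.

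The genes whose 2 fasting changes and level across the tables lay nearest to those of the family sum were Ttc36, Kcnh6, Scgn, 2210408I21Rik and Slc5a4b. They were taken from 12489 genes with a mean of at least 50 by the Euclidean distance over these 3 log2 values. Ttc36, at a distance of 0.15, had changes of -0.25 (SE 0.44) without and 1.11 (SE 0.68) with tetracycline. Kcnh6, also at 0.15, had -0.11 (SE 0.48) and 1.14 (SE 0.57), and Scgn, a calcium-binding protein of enteroendocrine cells, had -0.27 (SE 0.37) and 1.07 (SE 0.53) at a distance of 0.17. The last 2 lay at 0.26 each. Likeness over 3 values with errors of this size is a description only.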

How the data were processed

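The members and gene lists were chosen with earlier results of these data known. The authors deposited 2 tables of DESeq2 comparisons, per the file headers. Salmon, DESeq2 and mm10 are named, with no role or version, in the submitters' processing notes, and the annotation release is not given in the sources used here. The authors' mean is a signal: counts divided by a size factor per library and averaged. The authors' log2 fold change and its standard error compare the feeding states, and the tables' names were taken to mean fasted over fed. The authors' test statistic is a score, the change over its error. The authors' p-values are given with a Benjamini-Hochberg adjusted p for rows that passed a filter on low means. A kit that does not keep strand was used, per the labels' protocols.

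Since whole counts lie behind each mean, the 10 rows of the copies were resolved into counts for 2 fasted and 2 fed libraries per table, each with 1 solution. Their log2 changes differed from the deposited ones by at most 0.037. Listed genes were resolved up to a mean of 1000. No count model was run, and intervals of single libraries are not given. There were 0 further per-sample columns. Calls are the authors' adjusted p under 0.05. Whether the fasting change differed between the tables was tested by a two-sided Wald test per gene on the deposited changes and errors, with Benjamini-Hochberg adjustment over genes with an adjusted p in both tables. The decoding and this test were checked on simulated data. Levels across the tables used a pseudocount of 1. Named genes are the copies, the called genes and up to 3 most abundant genes of each of the 21 lists, and the 5 genes nearest to the family sum. Some listed genes that the rule named are given by counts alone, and Cebpa, Lman1, Serpinf2, Alb, Fga, Fgb, Slc10a2, Fgf15, the cluster's neighbours, the genes that followed single copies over the libraries and those nearest to the family sum at a mean of at least 500 were named outside it, with their values seen. Some items, 1 promoter motif among them, are not reported here.

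Gene identifiers matched GENCODE M21 for 0.0509% of rows with the version and 99.3% without it in the table without tetracycline, and for 0.0498% and 99.2% in the other. Sequences came from GENCODE M21 transcripts and RefSeq promoters of GRCm38.p6, in which all 5 copies were found. Python 3.11.15, pandas 2.3.3, numpy 2.4.6, scipy 1.17.1, biopython 1.88 and matplotlib 3.10.9 were used. Alternatives were recentring, pseudocounts, leaving out copies or libraries, and other thresholds and adjustments.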

Additional observations from a re-analysis of the deposited data

Results flagged for a closer look

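Serpina1b stood out because its fasted and fed libraries separated in opposite directions in the 2 tables. Both fasted libraries lay below both fed ones without tetracycline and above them with it, and the fasting change differed by 1.88 (SE 0.49) on the log2 scale between the tables. The Wald test adjusted over all genes did not call this difference, and Serpina1b was chosen with the pattern known.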

How the results depend on the processing

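Of 50 alternative values of the main results, 39 stayed within the tolerance, 7 moved past it without a change of sign and 4 reversed. Of 75 for single copies and shares 67 stayed within it and 8 reversed. The tolerance was 1 SD of the spread between libraries for a log2 change or a share, the standard error for a difference of single copies, and a factor of 1.5 for a count. It is wide where libraries differ, so values within it could still differ in size. The cause was not tested. The family's log2 fasting change without tetracycline, -0.19, became 0.35 without Serpina1b and 0.17 as the unweighted mean of the copies, was -0.063 as their inverse-variance mean, and ran from -0.45 to 0.026 when a library was left out. With tetracycline it was 1.22, and 0.72 without Serpina1b. The difference of the family's changes, 1.41, was 0.37 without Serpina1b. Leaving out a library without tetracycline gave -0.29 to 0.78 for Serpina1c, -0.65 to 0.52 for Serpina1d and -0.46 to 0.91 for Serpina1e. For Serpina1a it gave 0.36 to 0.70 without and 1.36 to 3.09 with tetracycline. With tetracycline it gave -0.20 to 1.16, -0.23 to 1.87 and -0.996 to 1.38 for Serpina1c, Serpina1d and Serpina1e. For Serpina1b it gave -0.59 to -0.29 without and 1.30 to 1.59 with tetracycline, with no change of sign. The 1 copy called with tetracycline became 0 at an adjusted p under 0.01 and 0 with the adjustment over all rows. Genes called in all fell from 411 to 246 and from 108 to 68 at 0.01, and rose to 588 and 141 at 0.1. The Wald test called 1 gene rather than 4 among those with a mean of at least 50. With a mean of at least 500, the genes nearest to the family sum were Slc5a4b, Guca2a, Car4, Dpep1 and Creb3l4. No paired analysis was possible because the labels give no replicate numbers and the libraries carry none. The leave-one-out and recentred values of single copies, the sums with the pseudogene and the difference without Serpina1b were chosen after seeing the data. Depth limits Serpina1d and Serpina1a, which had as few as 3 and 4 counts in a library.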

Other observations

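Genes that followed a copy over the 8 single libraries were looked for after the data had been seen. Normalized counts with a pseudocount of 1 were put on the log2 scale and centred within each table, and 3298 genes with a mean of 50 to 600 were ranked by their root mean square distance to a copy. Serpina1c, with a spread of 0.50 around its own means, lay at 0.12 from Fbxo44, 0.16 from Tmem38a and 0.19 from Zfp108, against a median of 0.70 over all these genes. Fbxo44, a substrate receptor of a ubiquitin ligase, stood at 283 and 114 in the fasted pair and 123 and 172 in the fed pair without tetracycline, and at 98.7 and 319 against 127 and 106 with it. Like Serpina1c it was highest in fasted library 1 without tetracycline and in fasted library 2 with it.

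Serpina1e, with a spread of 0.74, lay at 0.22 from Acsm5, a mitochondrial acyl-CoA synthetase, and 0.22 from Rom1. Acsm5 stood at 554 and 245 in the fasted pair and 180 and 396 in the fed pair without tetracycline, and at 174 and 647 against 444 and 333 with it. Serpina1b, with means of 665 without and 623 with tetracycline, lay above the range of these candidates. Nearest to it were Edn1, the peptide endothelin 1, at 0.25, 1500009L16Rik at 0.28 and Cbln3 at 0.28. The spread of Serpina1b itself was 0.54. Ffar4, a receptor for long-chain fatty acids, followed at 0.30. It stood at 183 and 154 in the fasted pair and 146 and 209 in the fed pair without tetracycline, and at 155 and 186 against 88.2 and 105 with it. Ttc36, which was also nearest to the family sum by the fasting changes, was the fifth at 0.31. Distances over 8 libraries from so many candidates are a description and were not tested.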
